A study of Mus musculus with 6 samples.

Results

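Albumin, alpha-fetoprotein, afamin and the vitamin D-binding protein form 1 protein family of blood carriers, and their genes Alb, Afp, Afm and Gc lie on mouse chromosome 5. The genes described here are these 4 and 3 genes whose products are known to repress Afp, namely Zbtb20, Zhx2 and Zfhx3, so 7 of the 34718 genes in the deposited table. They were chosen by name and known role by a reader of earlier results from the same libraries, and the values in view were the differences between knockdown and control. The rule holds no threshold on a measured value. The differences of the 7 genes are therefore a description, and their adjusted p-values are printed as values of the fit across all genes, not as support.

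The study compared Hepa1-6 cells, a mouse hepatoma line, labelled shNC (control) with Hepa1-6 cells labelled shZfp207, in which a short hairpin lowers Zfp207, with 3 libraries in each group. Zfp207 encodes the mouse form of ZNF207, which binds the spindle checkpoint protein BUB3. The labels give no time after knockdown and no number of hairpins or clones, and the same growth protocol stands for both groups. They tag the tissue as tumor, while that protocol describes cultured cells. Effects of a hairpin other than loss of Zfp207 cannot be told apart from it here.

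In fetal liver both Alb and Afp are transcribed at high levels, and after birth Afp is shut down while Alb stays on. Afp returns in regenerating liver and in many hepatomas, which makes its protein a marker of liver tumours. A promoter beside each gene and enhancers between Alb and Afp bind liver factors such as FOXA and C/EBP proteins. Zbtb20 and Zhx2 silence Afp in mouse liver after birth, and ZFHX3, also called ATBF1, represses AFP in human hepatoma cells.

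The gene counts summed to between 11933736 and 16248346 per library. Zfp207 fell from 184.9 ± 40.0 to 47.9 ± 0.614 TMM-scaled CPM (mean ± SD, n = 3 each), where CPM are counts relative to library size, scaled by TMM (trimmed mean of M values). On the log2 scale the change was -1.95 (SE 0.17), and edgeR's quasi-likelihood test gave an adjusted p of 0.00236. Control replicate 1 stood apart: its counts were 10.5% mitochondrially encoded, where the other controls had 2.89% and 2.67% and the knockdown libraries 5.60% to 6.00%. Across genes, the log2 CPM of control replicate 1 had a Pearson r of 0.950 with either other control, while those had 0.989 between them. Results are therefore given with and without control replicate 1, and its part in them beyond that was not tested. Of 10 hepatocyte markers, Ttr, Ahsg and Serpina1a stayed under 1 CPM in every library, while Alb and Hnf4a were abundant, so only some features of a hepatocyte were present. The hepatocyte markers summed to 1834 to 2640 CPM in controls and 3646 to 3819 CPM in knockdown libraries. Alb itself counts in that sum, with means of 959.4 and 2342 CPM in control and knockdown cells. Of the other abundant markers, Apob and Fgb had higher means in knockdown cells, Trf had a lower one and the groups overlapped for Hnf4a. The higher sum is thus no general rise of the hepatocyte markers. Of 5 cholangiocyte markers none was under 1 CPM in every library, and their sum was 924.1 to 1061 CPM in controls and 468.9 to 475.6 CPM in knockdown libraries. Most of that sum was Spp1, which was lower in knockdown cells (log2 difference -1.13, edgeR adjusted p = 0.00397). Krt7 and Epcam were lower too, with log2 differences of -1.43 and -1.54 (edgeR adjusted p = 0.00191 and 0.00643). Krt19 had means of 0.445 and 1.02 CPM in control and knockdown cells, a rise that did not pass (edgeR adjusted p = 0.122). The groups overlapped for Sox9. The 5 fibroblast markers summed to 2020 to 2303 CPM in controls and 2698 to 2809 CPM in knockdown libraries. Nearly all of it was Dcn, whose rise did not pass (edgeR adjusted p = 0.0968). Pdgfra fell from a mean of 25.6 to 17.5 CPM (edgeR adjusted p = 0.0181), and Col1a1, Col1a2 and Col3a1 were under 1 CPM throughout. Endothelial markers summed to at most 2.07 CPM and leukocyte markers to at most 17.1 CPM in any library. Most of the leukocyte sum was Cd68, with means of 14.4 and 11.1 CPM in control and knockdown cells (edgeR adjusted p = 0.142). Csf1r, at low levels, rose from a mean of 0.479 to 3.24 CPM (edgeR adjusted p = 0.0117).

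The promoters of the 4 albumin family genes are shown because Alb, Afp and Gc were all higher in knockdown cells while Afm was not. Each run is 300 bases of RefSeq sequence (GRCm38.p6) around the transcription start, most of them before it, read along the gene's strand. Capitals mark matches, on either strand, to the letters of a TATA box, a CCAAT box and the elements of FOXA and C/EBP proteins, which are spelled out after the sequences with N for any base. The regions are chr5:90460620-90460919 (plus strand) for Alb, chr5:90490464-90490763 (plus strand) for Afp, chr5:90518699-90518998 (plus strand) for Afm and chr5:89457849-89458148 (minus strand) for Gc.
Alb: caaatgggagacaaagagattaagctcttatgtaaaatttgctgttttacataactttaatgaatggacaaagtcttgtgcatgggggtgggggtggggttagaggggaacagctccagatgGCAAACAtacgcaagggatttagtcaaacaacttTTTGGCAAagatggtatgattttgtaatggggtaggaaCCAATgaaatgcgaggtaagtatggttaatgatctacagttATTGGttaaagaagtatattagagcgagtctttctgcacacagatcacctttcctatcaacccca
Afp: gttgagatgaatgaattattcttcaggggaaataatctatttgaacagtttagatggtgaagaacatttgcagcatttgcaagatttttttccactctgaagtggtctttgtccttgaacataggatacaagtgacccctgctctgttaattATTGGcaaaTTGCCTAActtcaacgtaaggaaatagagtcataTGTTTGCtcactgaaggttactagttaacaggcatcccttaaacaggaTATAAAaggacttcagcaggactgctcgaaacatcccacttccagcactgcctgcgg
Afm: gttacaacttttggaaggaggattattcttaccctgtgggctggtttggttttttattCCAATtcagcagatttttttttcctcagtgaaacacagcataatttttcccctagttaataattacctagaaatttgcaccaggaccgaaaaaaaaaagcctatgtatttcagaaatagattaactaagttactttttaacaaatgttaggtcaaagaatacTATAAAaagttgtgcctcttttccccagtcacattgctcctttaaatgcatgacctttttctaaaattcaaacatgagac
Gc: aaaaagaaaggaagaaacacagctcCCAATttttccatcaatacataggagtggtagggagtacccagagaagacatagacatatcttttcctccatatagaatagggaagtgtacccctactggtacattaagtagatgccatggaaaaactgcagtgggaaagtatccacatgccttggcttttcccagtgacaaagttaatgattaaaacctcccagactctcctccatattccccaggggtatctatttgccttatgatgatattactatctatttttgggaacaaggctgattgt

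The CCAAT box, searched as CCAAT and present in 37.4% of the 32817 promoters of the same length, matched 2 times in Alb and 1 time in each of Afp, Afm and Gc. In Alb the matches began 56 bases before the RefSeq start on the gene's strand and 15 before it on the other strand. They began 98 bases before the start in Afp, on the other strand, and 192 in Afm and 225 in Gc, on the gene's strand. The TATA box, searched as TATAAA and present in 13.6% of all promoters, was found in Afp and Afm. The matches began 7 and 30 bases before the RefSeq start, on the gene's strand. For Alb, Afp and Afm the RefSeq start is not the first base of the deposited gene span. For FOXA proteins the letters searched were TGTTTNC, held by 20.5% of all promoters, with 1 match in Alb and 1 in Afp. For C/EBP proteins they were TTGCNNAA, held by 10.8%, again with 1 match in each of Alb and Afp. Of the 4 motifs the RefSeq promoter of Zfhx3 held none and that of Zbtb20 a CCAAT box alone. No 2 matches of different motifs shared bases in the 4 promoters. A match describes letters in this window, not a bound site, and whether any of these motifs bears on the differences was not tested.

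**Figure D1:**
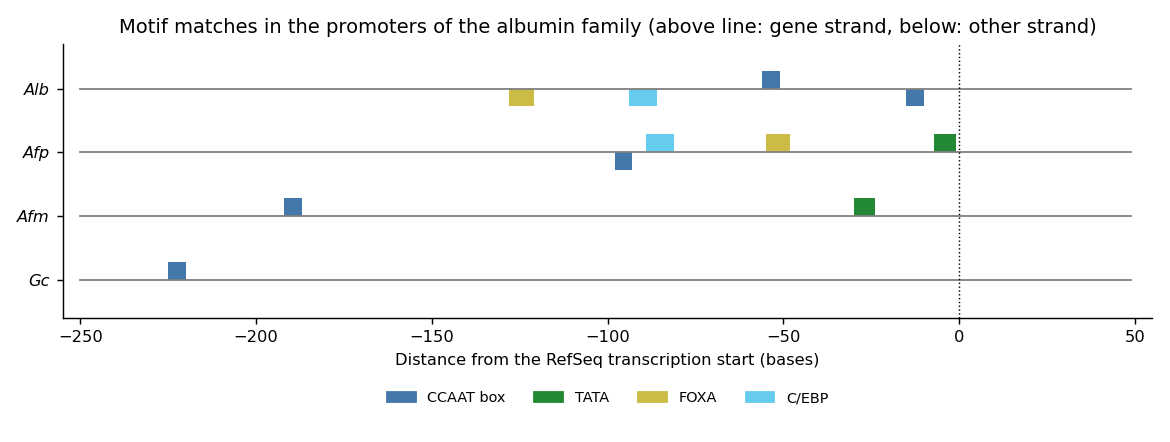
Positions of the motif matches in the 4 promoters, as distance in bases from the RefSeq transcription start, with matches on the gene's strand above each line and on the other strand below. Each promoter holds a CCAAT box, 2 in Alb (56 and 15 bases before the start), and FOXA and C/EBP matches are seen in Alb and Afp and TATA boxes in Afp and Afm.

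Of the 7 genes, all of which had enough counts to be tested, 4 passed at an adjusted p below 0.05 in edgeR's quasi-likelihood test, all of them higher in knockdown cells. These were Alb, Afp, Gc and Zfhx3. Of the whole table's 11975 tested genes, 20.6% passed, and 9.92% passed upward. In 5 of the 7 genes the 3 knockdown libraries lay apart from the 3 control libraries, as they did in 44.7% of all genes tested. The median log2 fold change was 0.92 over the 7 genes and -0.03 over all genes. Since the genes were chosen with this contrast in view, nothing is read from these counts. Higher RNA of a gene per cell cannot be told apart from a larger share of cells expressing it in such bulk libraries.

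**Figure D2:**
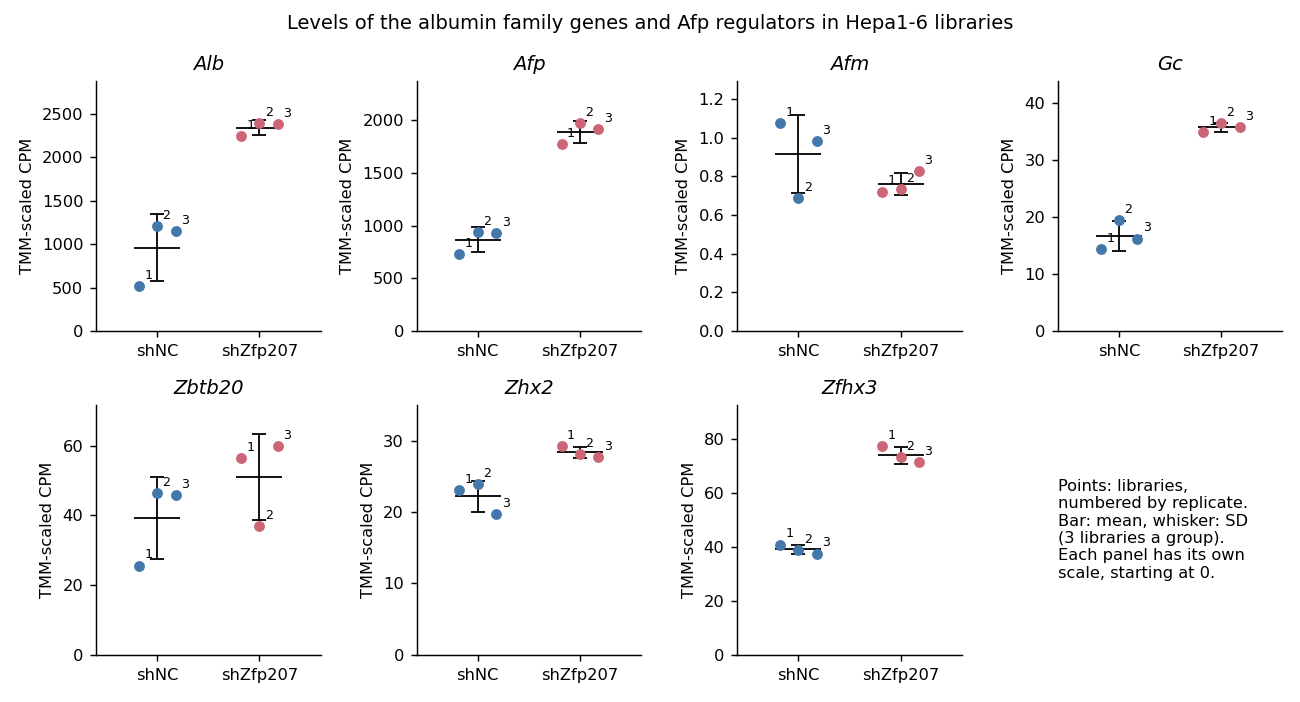
TMM-scaled CPM of the 7 genes in each of the 6 libraries, numbered by replicate, with the group mean and SD (3 libraries a group), each panel on its own scale from 0. Knockdown libraries lie above all controls for Alb, Afp, Gc, Zhx2 and Zfhx3, while the groups overlap for Afm and Zbtb20, and control replicate 1 is the lowest library for Alb, Afp, Gc and Zbtb20.

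Alb, the gene of the main carrier protein of blood plasma (ENSMUSG00000029368, mm10 chromosome 5, 90460897 to 90476602, plus strand), was higher in every knockdown library. It had 517.7, 1210 and 1151 TMM-scaled CPM in control replicates 1 to 3 and 2244, 2398 and 2385 in knockdown replicates 1 to 3. The knockdown libraries lay close together, and control replicate 1 had less than each of the other controls, at 0.439 of their mean. The means were 959.4 ± 383.6 in control and 2342 ± 85.2 in knockdown cells (SD, n = 3 each). Alb rose by 1.29 on the log2 scale (SE 0.311, edgeR adjusted p = 0.0316). Without control replicate 1 it was 0.99 (SE 0.0447, edgeR adjusted p = 1.43e-05). The size of the Alb rise thus depended on the control taken: knockdown cells had 1.98 times the mean of control replicates 2 and 3, and 4.52 times the level of control replicate 1. The call was lost without control replicate 3 or without any 1 knockdown replicate, with edgeR adjusted p of up to 0.108.

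Afp, the gene of the fetal counterpart of albumin (ENSMUSG00000054932, 90490737 to 90508907, plus strand), starts 14135 bases beyond the end of Alb. It had 733.0, 939.8 and 929.6 TMM-scaled CPM in control replicates 1 to 3 and 1773, 1976 and 1919 in knockdown replicates 1 to 3. All knockdown libraries lay above all controls, and the spread of the controls was smaller than for Alb. The means were 867.5 ± 116.6 and 1889 ± 104.6 (SD, n = 3 each), 2.18-fold apart. In log2 terms knockdown exceeded control by 1.12 (SE 0.138, edgeR adjusted p = 0.0048). Leaving out any 1 library moved this to between 1.01 and 1.18, and Afp passed in all 6 such fits. Gm43449, which overlaps the Afp span in part, had 0 counts in all 6 libraries.

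Gc, the gene of the vitamin D-binding protein (ENSMUSG00000035540, 89417522 to 89457898, minus strand), lies 1002999 bases before Alb and is read in the opposite direction. It had 14.3, 19.5 and 16.2 TMM-scaled CPM in control replicates 1 to 3 and 34.9, 36.5 and 35.7 in knockdown replicates 1 to 3. The groups did not overlap, although the gene was far less abundant than Alb and Afp. The means were 16.7 ± 2.59 and 35.7 ± 0.814 (SD, n = 3 each). The log2 difference was 1.10 (SE 0.137, edgeR adjusted p = 0.00511). It lay between 1.00 and 1.22 with each library left out and Gc passed the threshold in all 6 of those fits.

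Afm, which encodes afamin, a plasma carrier of vitamin E (ENSMUSG00000029369, 90518932 to 90553543, plus strand), starts 10025 bases beyond Afp and was near the limit of detection. It had 13, 10 and 16 counts in control replicates 1 to 3 and 11, 11 and 12 in knockdown replicates 1 to 3. The groups overlapped, and the highest library had 1.08 CPM. On the log2 scale Afm differed by -0.26 (SE 0.32, edgeR adjusted p = 0.606). A small change was not detectable at this depth. Up to 3.55% of the exonic sequence of Afm overlaps Gm42109 on the opposite strand.

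Per length, the authors' FPKM values (fragments scaled by gene length and library size) ordered the family as Alb, Afp, Gc and Afm in both groups. Mean FPKM was 374.1 ± 147.7 for Alb, 203.3 ± 26.0 for Afp, 8.53 ± 1.27 for Gc and 0.270 ± 0.0615 for Afm in control cells (SD, n = 3). In knockdown cells it was 906.8 ± 28.1, 438.9 ± 22.1, 18.1 ± 0.336 and 0.222 ± 0.0160 (SD, n = 3). In control replicate 1 the FPKM of Alb and Afp were 203.9 and 173.3, so that these neighbours in the order lay closest there. By mean FPKM Alb ranked at place 86 of all genes in control and 31 in knockdown cells, and Afp at 180 and 61.

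The ratio of Afp to Alb counts within a library does not depend on how libraries are scaled. Its log2 was 0.50, -0.36 and -0.31 in control replicates 1 to 3 and -0.34, -0.28 and -0.31 in knockdown replicates 1 to 3. Control replicate 1, with more Afp than Alb counts, was alone above 0, and the other 5 libraries lay within a narrow band. The mean was -0.06 ± 0.484 in control and -0.31 ± 0.0305 in knockdown cells (SD, n = 3 each), a difference of -0.25 with a two-sided exact permutation p = 0.8, where 0.1 is the smallest that 3 against 3 libraries allow. The difference was 0.025 when control replicate 1 was left out. The log2 ratio of Gc to Afp counts was -5.70 ± 0.126 and -5.72 ± 0.0493 (SD, n = 3 each), a difference of -0.020 (exact permutation p = 1). For Gc to Alb it was -5.76 ± 0.516 and -6.04 ± 0.0264 (exact permutation p = 0.7), with control replicate 1 at -5.18 and the other controls at -5.96 and -6.15. Against the mean of control replicates 2 and 3, the knockdown levels of Alb, Afp and Gc were 1.98, 2.02 and 2.00 times as high.

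**Figure D3:**
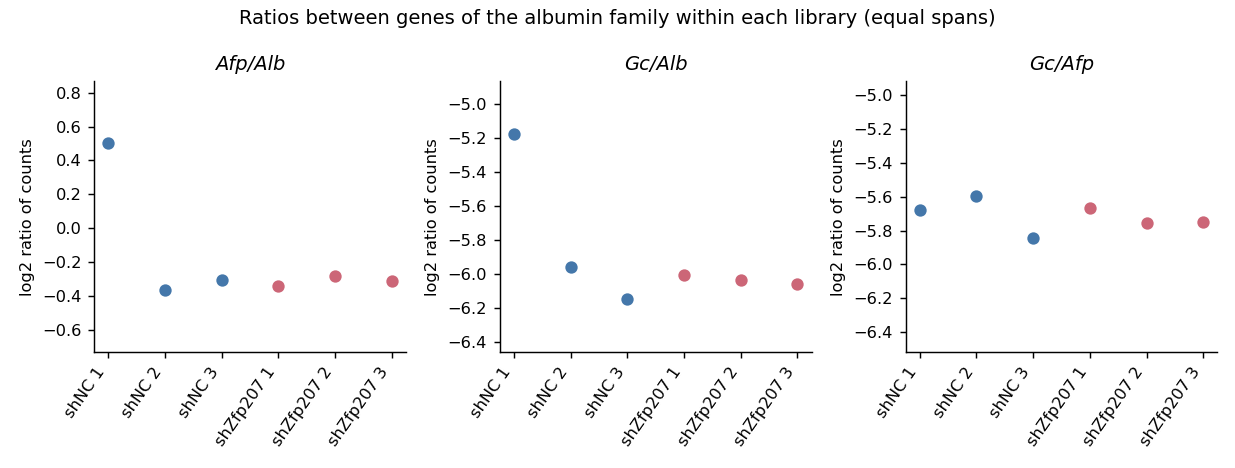
Log2 ratios of counts between Afp, Alb and Gc within each library (blue, shNC; red, shZfp207), with all 3 panels spanning the same height. Control replicate 1 stands above the other 5 libraries in the ratios to Alb (0.50 for Afp/Alb, -5.18 for Gc/Alb) and not in Gc/Afp.

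Zfhx3, a very large protein with many zinc fingers and homeodomains (ENSMUSG00000038872, mm10 chromosome 8, 108703100 to 108961630, plus strand), was the only one of the 3 Afp repressors past the threshold with all libraries. It had 40.8, 38.8 and 37.5 TMM-scaled CPM in control replicates 1 to 3 and 77.2, 73.1 and 71.3 in knockdown replicates 1 to 3. The groups did not overlap, and control replicate 1 lay with the other controls. The means were 39.0 ± 1.70 and 73.8 ± 3.02 (SD, n = 3 each), 1.89-fold apart. Zfhx3 rose by 0.92 on the log2 scale (SE 0.0893, edgeR adjusted p = 0.00302). It rose by 0.89 to 0.95 when any 1 library was left out and passed in all 6 of those fits. The direction was thus the same as that of Afp. On the log2(FPKM + 1) scale, which understates changes of genes with low FPKM, the log2 difference of Zfhx3 was 0.68.

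Zhx2, a homeodomain and zinc finger repressor (ENSMUSG00000071757, mm10 chromosome 15, 57694665 to 57839832, plus strand), had 23.0, 23.9 and 19.7 TMM-scaled CPM in control replicates 1 to 3. In knockdown replicates 1 to 3 it had 29.2, 28.1 and 27.7. All knockdown libraries lay above all controls, by a small margin. The means were 22.2 ± 2.19 and 28.4 ± 0.742 (SD, n = 3 each), with a log2 fold change of 0.35 (SE 0.115) that did not pass (edgeR adjusted p = 0.0724). Without control replicate 1 it was 0.38 (edgeR adjusted p = 0.019), in a fit where 52.1% of 12108 genes passed, and 5 of the 7 genes were then higher.

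Zbtb20, a BTB domain zinc finger repressor (ENSMUSG00000022708, mm10 chromosome 16, 42875881 to 43642602, plus strand), varied within both groups. It had 25.6, 46.4 and 45.9 TMM-scaled CPM in control replicates 1 to 3 and 56.4, 36.8 and 59.8 in knockdown replicates 1 to 3. Control replicate 1 and knockdown replicate 2 were low within their groups, and the groups overlapped. The means were 39.3 ± 11.9 and 51.0 ± 12.4 (SD, n = 3 each), and Zbtb20 differed by 0.38 on the log2 scale (SE 0.278, edgeR adjusted p = 0.38). It was 0.15 without control replicate 1 and 0.56 without knockdown replicate 2, and passed in none of the 6 fits that left out 1 library. The exons of the 21 annotated transcripts cover 30730 bases, of which 0.27% overlap another gene on the same strand and 0.338% on the other, and counts per gene do not separate its isoforms.

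**Figure D4:**
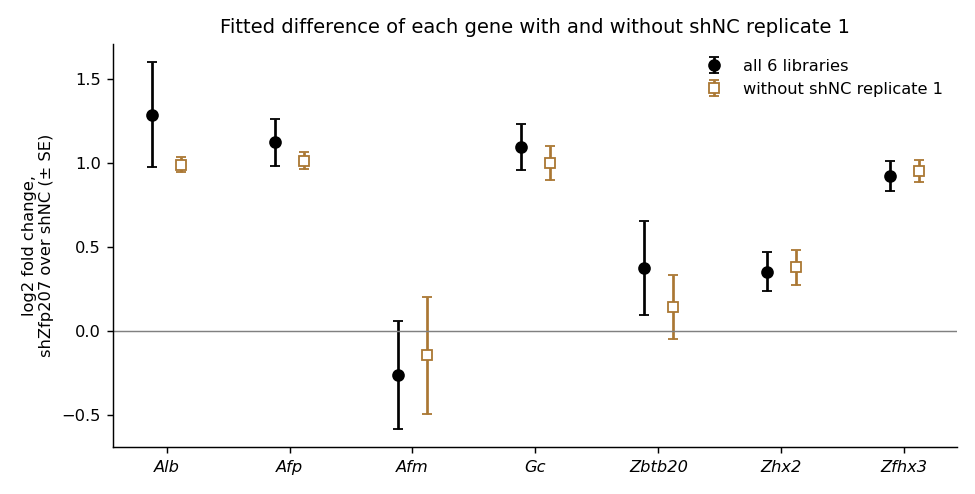
Log2 fold change, knockdown over control, of each gene with its SE, from all 6 libraries (filled circles) and without control replicate 1 (open squares). Alb, Afp, Gc and Zfhx3 lie near 1 in both fits, with Alb falling from 1.29 to 0.99, while the values of Afm and Zbtb20 lie within 2 SE of 0.

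By mean RNA level none of the 3 Afp repressors was lower in knockdown cells. Their proteins were not measured, and whether they bear on the level of Afp was not tested. The 8 relatives and partners of these repressors, among them Zhx1, Zhx3 and the subunits of the CCAAT-binding factor NF-Y, included 7 genes that could be tested, of which 1 passed, against 20.6% of all tested genes. That was Nfyb, the gene of an NF-Y subunit, which fell from 39.9 ± 4.10 to 28.9 ± 1.75 TMM-scaled CPM (log2 difference -0.46, SE 0.116, edgeR adjusted p = 0.0345) and kept its call in 2 of the 6 fits that left out 1 library. Of 38 tested genes other than Zbtb20 whose names begin with Zbtb and a number, 6 were higher and 3 lower (median log2 fold change 0.13), where 20.6% of all tested genes passed. Zbtb8os, which was among the lower genes (-0.85 on the log2 scale, edgeR adjusted p = 0.0239) and is named here outside the rule, shares only the start of its name with the family. Its call was not followed over the fits that left out 1 library. Zbtb39 and Zbtb38 rose by 1.02 and 0.78 on the log2 scale and passed in all 6 fits that left out 1 library. Zbtb1 fell by 0.76, and Zbtb22, Zbtb2 and Zbtb41 rose by 0.67, 0.60 and 0.46, each losing the call in at least 1 such fit. Leaving out control replicate 1 gave 3 of 7 relatives that passed, all lower, and of the 38 genes named Zbtb 11 higher and 6 lower, in a fit where 52.1% of all genes passed.

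Of 36 transcription factors that act on liver promoters and enhancers, 31 passed the filter on counts, with 7 higher and 3 lower and a median log2 fold change of 0.07 against -0.03 for all genes, of which 20.6% passed. Nr5a2, the nuclear receptor once named fetoprotein transcription factor for its action on the Afp promoter, rose from 6.73 ± 2.24 to 15.4 ± 2.59 TMM-scaled CPM (log2 difference 1.18, SE 0.274, edgeR adjusted p = 0.0276). Its call was kept in 2 of the 6 fits that left out 1 library. Tef, a bZIP factor of the group that binds the albumin promoter, rose from 19.5 ± 6.31 to 52.5 ± 3.13 (log2 difference 1.44, SE 0.225, edgeR adjusted p = 0.00882). The orphan nuclear receptor gene Nr2f2 rose by 0.94 and the T-box factor gene Tbx3 by 1.10, while Nr1h4, the gene of the bile acid receptor FXR, fell by 1.19 and Onecut2 by 0.77 on the log2 scale. Of these 6, Nr5a2 and Onecut2 lost their calls in at least 1 fit that left out 1 library. Leaving out control replicate 1 gave 12 higher and 7 lower factors of 31, beside 52.1% of all genes passing in that fit.

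Genes of factors whose motifs were searched for in the promoters are named here outside the rule for named genes. Nfyb, of the CCAAT-binding factor, was lower as given above, while its partner subunits Nfya and Nfyc had log2 fold changes of 0.24 and -0.10 and did not pass. Among C/EBP genes, Cebpg rose by 0.29 on the log2 scale (SE 0.0810, edgeR adjusted p = 0.0454), and Cebpd had a log2 fold change of 0.14 (edgeR adjusted p = 0.814). The call of Cebpg lay close to the threshold and was not followed over the fits that left out 1 library. Foxa1, Foxa2 and Foxa3 had log2 fold changes of -0.064, 0.015 and 0.044, and Cebpa and Cebpb 0.30 and -0.68, with edgeR adjusted p from 0.0891 to 0.966, so that none of these 5 passed. Hnf4a, a nuclear receptor that maintains hepatocyte gene expression, differed by 0.015 on the log2 scale (SE 0.0926, edgeR adjusted p = 0.927).

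Within 1 Mb of the span from Alb to Afm or of Gc on chromosome 5 the table holds 41 other genes, of which 22 had enough counts for the test. Among these 2 were higher and 2 lower (median log2 fold change -0.08), where 20.6% of all tested genes passed, so the neighbours' share was near that of the whole table. The chemokine gene Cxcl15 rose by 1.48 and its neighbour Gm43085, a gene model with 1 to 16 counts per library, by 2.70 on the log2 scale. Areg, the gene of the growth factor amphiregulin, fell by 0.66 and the chemokine gene Cxcl3 by 0.59. Cxcl15 passed in all 6 fits that left out 1 library, and the other 3 did not. The nearest tested gene before Alb was Ankrd17, an ankyrin repeat gene, at 113.1, 275.5 and 258.4 TMM-scaled CPM in control replicates 1 to 3 and 301.6, 307.4 and 313.4 in knockdown replicates 1 to 3. The groups did not overlap, but control replicate 1 was far below the rest (log2 difference 0.51, SE 0.31, edgeR adjusted p = 0.285). It was 0.20 without control replicate 1 (edgeR adjusted p = 0.00703).

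Just beyond Afm, 5830473C10Rik and Rassf6, a gene of the RASSF family of signalling adaptors, had log2 fold changes of 0.61 and 0.19 (edgeR adjusted p = 0.142 and 0.236). Without control replicate 1 these were 0.90 and 0.20 (edgeR adjusted p = 0.00379 and 0.104). The nearest tested neighbour of Gc, the bicarbonate cotransporter gene Slc4a4, had 23.1, 60.0 and 54.1 TMM-scaled CPM in control replicates 1 to 3 and 93.0, 93.3 and 91.5 in knockdown replicates 1 to 3, a log2 difference of 1.02 (SE 0.324, edgeR adjusted p = 0.0689). Its order of libraries resembled that of Alb, with control replicate 1 lowest. Without control replicate 1 the log2 difference of Slc4a4 was 0.70 (edgeR adjusted p = 0.000167). The other tested neighbours were Cox18 (0.23), Eif5al3-ps (-0.07), Cxcl5 (-1.76), Ppbp (-0.08), Cxcl1 (-0.13), Cxcl2 (-0.52), Mthfd2l (-0.09), Btc (-1.46) and Parm1 (-0.11) around the albumin cluster, with log2 fold changes in brackets. Around Gc they were Utp3 (-0.36), Rufy3 (-0.05), Grsf1 (-0.31), Mob1b (0.27) and Dck (0.16). None of these passed. When control replicate 1 was left out, 6 of the 22 neighbours were higher and 5 lower, where 52.1% of all genes passed, and Cxcl1 then had a log2 fold change of 1.43.

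**Figure D5:**
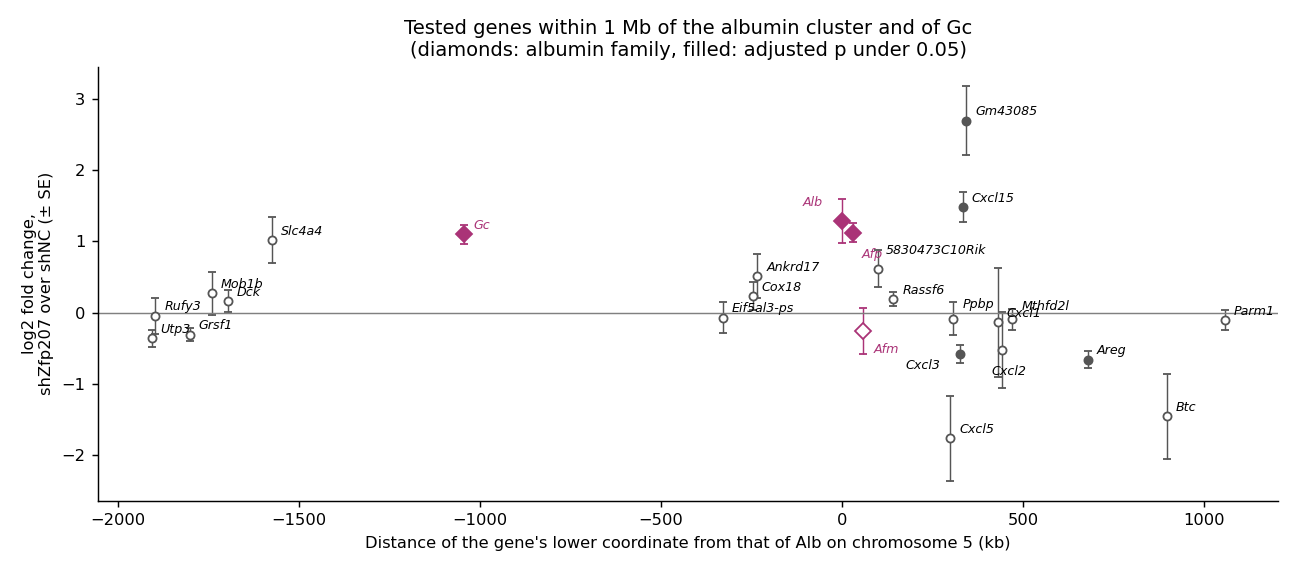
Log2 fold change, knockdown over control, with its SE, of the tested genes near the albumin cluster and Gc, against the distance in kb of each gene's lower coordinate from that of Alb. Alb, Afp and Gc (filled diamonds) lie between 1.10 and 1.29 and Afm (open diamond) at -0.26, while the other genes spread on both sides of 0 and 4 of them (filled circles) passed the threshold.

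Most other plasma protein genes of hepatocytes had too few counts to be tested. Of 28 such genes in the table, 10 passed the filter on counts, with 2 higher and 3 lower (median log2 fold change 0.59), where 20.6% of all tested genes passed. Fgb, the fibrinogen beta chain gene, rose from 130.9 ± 39.7 to 229.4 ± 1.37 TMM-scaled CPM (log2 difference 0.81, SE 0.225, edgeR adjusted p = 0.0468), and Apoa1, the main apolipoprotein gene of high-density lipoprotein, rose by 0.85. Trf, the transferrin gene, fell from 767.1 ± 74.3 to 523.3 ± 7.94 (-0.55, SE 0.106, edgeR adjusted p = 0.0155), the complement gene C3 fell by 1.24 and Apoa2 by 2.23 on the log2 scale. Each of these 5 lost its call in at least 1 fit that left out 1 library. Genes of blood carriers included rises (Alb, Afp, Gc) and a fall (Trf) in the same libraries. In the fit without control replicate 1, 6 of 11 tested plasma protein genes were higher and 3 lower, beside 52.1% of all genes passing.

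Of 18 fetal liver and oncofetal genes 9 were tested, with 1 higher and 3 lower (median log2 fold change 0.07), beside 9.92% of all tested genes higher and 20.6% passing in either direction. Igf2, the fetal growth factor gene, fell from 21.8 ± 6.56 to 4.99 ± 1.05 TMM-scaled CPM (-2.13, SE 0.278, edgeR adjusted p = 0.00567), and Epcam, a surface protein of hepatic progenitors, fell by 1.54, both in all 6 fits that left out 1 library. Lpl, the lipoprotein lipase gene and another target of Zhx2 in mouse liver, fell by 0.44, and Igf2bp1, which encodes a fetal RNA-binding protein, rose by 0.32, and both lost their calls in at least 1 such fit. H19, a fetal noncoding RNA that Zhx2 silences together with Afp in mouse liver, stayed under 0.4 CPM in every library and was named outside the rule. Of 20 genes of adult hepatocyte enzymes only 2 had enough counts to be tested, and both were lower, beside 20.6% of all tested genes passing. Ass1, a urea cycle gene and 1 of these, fell from 9.47 ± 2.99 to 2.46 ± 0.325 TMM-scaled CPM. That was a fall of 1.94 on the log2 scale, and Ass1 passed in all 6 fits that left out 1 library. The fit without control replicate 1 had 4 of 10 tested fetal genes higher and 3 lower, where 52.1% of all genes passed.

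Of 12 genes that handle albumin or the vitamin D-binding protein after secretion or act on vitamin D, 7 were tested and 2 passed, both higher (median log2 fold change -0.016), against 20.6% of all tested genes passing. Cubn, the gene of cubilin, an endocytic receptor for both carriers in the kidney, rose from 7.94 ± 3.11 to 26.1 ± 1.26 TMM-scaled CPM (log2 difference 1.70, SE 0.289, edgeR adjusted p = 0.0108). Sparc, which encodes an albumin-binding matrix protein, rose from 255.0 ± 47.1 to 441.4 ± 7.40 (0.79, SE 0.148, edgeR adjusted p = 0.0144). Both kept their calls in 3 of the 6 fits that left out 1 library. With control replicate 1 left out, 2 of 7 were higher and 3 lower, against 52.1% of all genes passing.

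Among protein-coding genes with a mean of at least 5 CPM, the 3 whose log2 CPM followed each of the 7 genes most closely over the 6 libraries were different genes each time. Abl2, Dlc1 and Fat1 were closest to Alb (Pearson r from 0.9995 to 0.9998), Vdac1, Kmt2a and Cyp11a1 to Afp (0.9987 to 0.9995) and Kif13a, Magea6 and Fam107b to Gc (0.9972 to 0.9998). Pip4k2b, Arhgef12 and Hmgxb3 were closest to Zfhx3 (0.9978 to 0.9988), Prkar2b, Whsc1 and Nptx1 to Zhx2 (0.989 to 0.99) and Depdc7, BC005624 and Dgcr6 to Afm (0.956 to 0.998). Such values arise easily over 6 libraries in 2 groups, and are given as a description. For Zbtb20 the closest were Armc8, Nfix and Tmem168 (0.989 to 0.995). Nfix, a nuclear factor I gene, had 3.15, 20.5 and 23.1 TMM-scaled CPM in control replicates 1 to 3 and 33.5, 10.8 and 36.9 in knockdown replicates 1 to 3. It was low in control replicate 1 and knockdown replicate 2, as Zbtb20 was. Alb and Afp correlated at r = 0.950 over the 6 libraries and at 0.999 over the 5 without control replicate 1, and Afp and Gc at 0.991 and 0.986.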

How the data were processed

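RNA was sequenced from 6 Hepa1-6 libraries, 3 titled shNC and 3 titled shZfp207. The build mm10 appears, without roles for any item, in the submitters' processing notes, as do featureCounts 1.5.0-p3 and HISAT2 2.0.5. Annotation, strand setting and filters were not given in the sources used here. Nothing says that replicates came from separate cultures, so each p-value reflects the spread among these libraries alone, which may be technical. The authors deposited raw counts per gene, and FPKM values for the same genes. Coordinates were taken from the deposited table, while strand and overlap come from GENCODE M21 (GRCm38), where 98.6% of identifiers were found. For Zfhx3 the deposited span differs from that annotation.

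Genes were filtered with filterByExpr (11975 of 34718 kept) and tested with edgeR 4.0.16 in R 4.3.3 on the raw counts, with TMM scaling, a quasi-likelihood fit to all 6 libraries with the group as only term, and Benjamini-Hochberg adjustment over the 11975 genes. Genes passed at an adjusted p below 0.05. The SE is the log2 fold change divided by the square root of F. The procedure was tested on simulated data. A count of 0 allows up to 3 counts, or 0.185 to 0.251 CPM, for counting error only.

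The members, gene lists and motifs were chosen with earlier results of these data known. Named genes are the 7, Zfp207, all tested neighbours on chromosome 5, up to 6 genes with the smallest p among the passing genes of each other list, and the 3 genes closest to each of the 7 over the libraries. Alternatives were RLE and upper-quartile scaling, removal of mitochondrially encoded genes, 2 other filters, DESeq2 1.42.0, limma 3.58.1 on log2(FPKM + 1), a replicate block and each library left out. Some genes and 1 motif are not reported here.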

Additional observations from a re-analysis of the deposited data

How the results depend on the processing

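The calls of Alb, Afp, Gc and Zfhx3 and the lack of a call for Afm and Zbtb20 held under both other scalings, without mitochondrially encoded genes, with DESeq2, with limma on log2(FPKM + 1) and without a filter, as also with a filter of at least 1 CPM in 3 libraries, where Afm was not tested. With each library left out the log2 fold change ranged from 0.99 to 1.49 for Alb, 1.01 to 1.18 for Afp, -0.43 to -0.14 for Afm, 1.00 to 1.22 for Gc, 0.15 to 0.56 for Zbtb20, 0.27 to 0.41 for Zhx2, 0.89 to 0.95 for Zfhx3 and -2.11 to -1.82 for Zfp207. The number of the 7 genes called then ranged from 3 to 5, and the Afp to Alb difference from -0.41 to 0.025, reversed only without control replicate 1. Left-out fits called 534 to 6313 genes of the whole table, 4 to 19 liver factors, 0 to 3 repressor relatives, 0 to 9 plasma protein, 2 to 7 fetal, 0 to 5 carrier-handling, 2 to 17 Zbtb-named and 1 to 11 neighbouring genes. The lowest whole-table counts came from fits without 1 knockdown replicate and the highest without control replicate 1.

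No clear pairing by replicate number was seen: same-numbered libraries deviated from their group means with correlations of -0.01, 0.01 and 0.05 across genes. Differently numbered libraries had correlations of -0.047 to 0.024. With 3 libraries in each group such values cannot exclude pairing. With a replicate block the counts were 987 for the whole table, 5 for liver factors, 0 for repressor relatives, 0 for plasma proteins, 2 for fetal, 3 for Zbtb-named and 2 for neighbouring genes, while Alb, Afp, Gc and Zfhx3 stayed past the threshold (Alb 1.38, adjusted p = 0.0489). Without a filter 0 repressor relatives and 3 plasma protein genes passed, and DESeq2 called 9 neighbours. Sign changes among the other named genes were all of values that had not passed with all libraries. Over the fits that left out 1 library, Cxcl1 ranged from -0.56 to 1.43, Cxcl2 from -0.87 to 0.22, Eif5al3-ps from -0.14 to 0.062, Ppbp from -0.19 to 8.4e-06, Mob1b from -0.018 to 0.49 and Rufy3 from -0.21 to 0.28, and Cxcl1 was 0.085 with limma and 0.41 with the block. Of 30 other named genes that passed, 11 kept the call with each library left out. Depth limits Afm most, at 10 to 16 counts per library.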

Other observations

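Low levels in control replicate 1 were not particular to Alb among plasma protein genes. The genes in this paragraph were chosen after their values were seen, and the reason was not tested. Itih2, an inter-alpha-trypsin inhibitor heavy chain gene, had 358.3, 931.0 and 873.0 TMM-scaled CPM in control replicates 1 to 3 and 1125, 1174 and 1163 in knockdown replicates 1 to 3. Apob, the gene of the core apolipoprotein of low-density lipoprotein, had 38.9, 177.7 and 178.7 in controls and 276.1, 297.5 and 296.8 in knockdown libraries. Hpx, the gene of the heme carrier hemopexin, had 13.7, 71.4 and 65.9 in controls and 91.1, 79.7 and 83.3 in knockdown libraries. In all 3 every knockdown library lay above every control, yet none passed with all libraries (edgeR adjusted p = 0.197, 0.161 and 0.356), since the spread of the controls was wide. Trf had its highest value in control replicate 1 (852.8 CPM), where Alb had its lowest. Rbp4, the retinol carrier gene, had 483.5, 585.1 and 644.9 in controls and 585.6, 547.8 and 555.0 in knockdown libraries, so that its groups overlapped.

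Btc, the betacellulin gene downstream of the albumin cluster, had 48 counts in knockdown replicate 1 and 301 and 318 in knockdown replicates 2 and 3, against 545 to 660 in the control libraries.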
